A study of Mus musculus with 6 samples.

Results

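The 8 genes described here encode the enzymes that write, copy and remove DNA methylation, chosen by symbol: *Dnmt1*, *Dnmt3a*, *Dnmt3b*, *Uhrf1*, *Tet1*, *Tet2*, *Tet3* and *Tdg*. They are 8 of the 55416 genes in the deposited count table, and all 8 were among the 16296 genes that passed the filter of at least 10 counts in at least 2 libraries. RNA-Seq had been performed on coronary endothelial cells (ECs) sorted from heart ventricles at E15.5, in 3 libraries from *ControlΔEC* and 3 from *Wt1KOΔEC* embryos. *ControlΔEC* embryos were Pdgfb(CreERT2/+); Wt1(+/+); R26(mTmG/+), and *Wt1KOΔEC* embryos were Pdgfb(CreERT2/+); Wt1(loxP/loxP); R26(mTmG/+). The dams that carried embryos of either genotype received tamoxifen at 75 mg/kg by gavage between E11.5 and E13.5. The controls therefore carried the active Cre, the reporter and the drug as well. Cells were sorted for membrane GFP, which the reporter switches on where the Cre driven by *Pdgfb* has recombined. The sort therefore selects recombined cells, not every coronary EC, and a GFP-positive cell need not have lost both *Wt1* alleles. The labels call the libraries biological replicates without saying how many embryos each holds, so p-values measure the spread between these samples.

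DNMT3A and DNMT3B place methyl groups on unmethylated CpG sites, whereas DNMT1 copies the pattern onto the new strand behind the replication fork. UHRF1 recognises the hemimethylated CpG left by replication and brings DNMT1 to it. TET1, TET2 and TET3 oxidise 5-methylcytosine stepwise, and TDG, a thymine DNA glycosylase, cuts out the most oxidised forms so that base excision repair can put back an unmodified cytosine. The WT1 protein is known to bind TET2 and bring it to target genes. RNA levels say nothing of the activity of these enzymes or of methylation itself, which was not measured.

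WT1 and the related EGR proteins recognise GC-rich sites, so the 250 bases before the start of each gene's Ensembl canonical transcript were searched for GCGNGGGNG on both strands (GRCm39, GENCODE vM39). The motif was found before 3 of the 8 genes, *Tet3* with 2 sites, *Dnmt3a* with 1 and *Dnmt3b* with 3, and before 10.5% of all 21757 promoters searched. The 3 stretches that hold it are shown because they are the members' only matches, with the matches in capitals as they read on the gene's strand. Each of these windows lies within the annotated span of its gene. They are chr6:83433375-83433624 on the minus strand for *Tet3*, chr12:3856713-3856962 on the plus strand for *Dnmt3a* and chr2:153491073-153491322 on the plus strand for *Dnmt3b*.
Tet3: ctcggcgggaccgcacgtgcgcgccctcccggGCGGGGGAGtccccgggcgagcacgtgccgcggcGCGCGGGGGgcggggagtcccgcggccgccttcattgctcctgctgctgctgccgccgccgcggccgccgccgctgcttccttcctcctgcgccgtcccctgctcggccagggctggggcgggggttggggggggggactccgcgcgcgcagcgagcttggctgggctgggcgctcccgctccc
Dnmt3a: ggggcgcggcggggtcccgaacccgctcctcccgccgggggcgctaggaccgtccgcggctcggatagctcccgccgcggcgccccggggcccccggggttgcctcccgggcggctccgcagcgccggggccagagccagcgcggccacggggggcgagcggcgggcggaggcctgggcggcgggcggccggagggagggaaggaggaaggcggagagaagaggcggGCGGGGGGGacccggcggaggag
Dnmt3b: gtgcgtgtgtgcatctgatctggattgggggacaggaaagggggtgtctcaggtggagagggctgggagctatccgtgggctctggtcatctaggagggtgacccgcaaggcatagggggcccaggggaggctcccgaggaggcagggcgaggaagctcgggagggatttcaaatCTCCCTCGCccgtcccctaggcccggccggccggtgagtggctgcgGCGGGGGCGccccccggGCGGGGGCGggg
These stretches also differ in CpG content. The *Tet3* and *Dnmt3a* windows held 38 and 39 CpG, the *Tet2* and *Dnmt3b* windows 17 each and that of *Tdg* 13, all above the median of 8 over all promoters. The windows of *Dnmt1* and *Uhrf1* held 7 CpG each and that of *Tet1* 2. Those of *Dnmt1* (chr9:20864276-20864525) and *Tet1* (chr10:62715794-62716043) also lie within the annotated span of their genes. Starts further upstream, and their CpG content, were not covered. A match in these letters is a description of the sequence and not a binding site, and binding was not measured.

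The targeted gene was low in every library labelled *Wt1KOΔEC*. *Wt1* (chromosome 2, 104956625 to 105003961, plus strand) was at 145, 109.5 and 149 CPM (counts of a gene relative to the scaled library total) in *ControlΔEC* replicates 1, 2 and 3, and at 14.0, 18.4 and 21.3 CPM in *Wt1KOΔEC*. The log2 fold change was -2.91 with a standard error (SE) of 0.22 (edgeR's quasi-likelihood test, Benjamini-Hochberg adjusted p = 0.00319), and the groups did not overlap. A gene was called different at an adjusted p below 0.05 together with a log2 fold change beyond 0.58 in either direction. Libraries held 26037324 to 44779020 counts, with the lowest total of each genotype in replicate 3, and 3 counts, the most that a count of 0 allows for, make 0.0608 to 0.119 CPM. Endothelial markers such as *Pecam1* and *Cdh5* summed to 4539 to 5766 CPM in *ControlΔEC* and 4685 to 5402 CPM in *Wt1KOΔEC*. Markers of other cell types were also detected, and some of these levels followed the genotype. Not all are specific, since the paper counts *Rgs5* and *Kcnj8*, mural here, among arterial genes. It counts *Col1a1* and *Dcn*, fibroblast here, among venous markers. All 6 macrophage markers had fold changes below 0, with sums of 187 to 557 CPM in *ControlΔEC* and 112 to 170 CPM in *Wt1KOΔEC*, and so had all 6 mural markers, at 464 to 626 against 321 to 377 CPM. Of 6 fibroblast markers, 5 had fold changes above 0 and 1 of them was called (*Col1a1*), at 407 to 586 against 712 to 876 CPM, and all 4 endocardial markers were above 0, at 261 to 367 against 380 to 443 CPM. Of 6 epicardial markers, 5 were above 0, with sums of 11.49 to 17.9 against 17.3 to 49.3 CPM. All 5 cardiomyocyte markers tested were above 0, with list sums of 97.2 to 142 against 75.3 to 180 CPM. Erythroid markers were split, 3 above 0 and 3 below, with sums of 3562 to 7455 against 2383 to 4243 CPM. Among them *Hbb-y* had a log2 fold change of 2.57 and *Alas2* of -1.15. DESeq2, which called 4.83% of all genes, called 3 fibroblast, 3 mural, 2 macrophage, 2 endocardial, 2 epicardial and 2 erythroid markers and no endothelial or cardiomyocyte marker, whereas edgeR called 0.0736% of all genes. The part of other cell types in the values that follow was not tested. In a bulk sample a change in the number of such cells, in RNA per cell or within the ECs cannot be told apart.

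None of the 8 genes was called different between the genotypes. Of all genes tested, 0.0736% were, 12 of 16296. At an unadjusted p under 0.05 the count was also 0 of 8, where 13.1% of all genes passed. The *ControlΔEC* and *Wt1KOΔEC* libraries overlapped for all 8 genes, whereas 19.3% of all genes had no overlap. DESeq2 called 4.83% of the 15886 genes it gave an adjusted p and none of the 8, with adjusted p from 0.651 to 0.955 for them. Fold changes were below 0 for 7 of the 8 genes, against 52% of all genes, and with scaling by library size alone for all 8, against 62.8%. Their median log2 fold change was -0.13, beside -0.03 over all genes tested. With scaling by library size alone these medians were -0.29 and -0.18. Each gene's 95% interval accompanies its values, since a p above the threshold does not show that levels were alike.

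**Figure D1:**
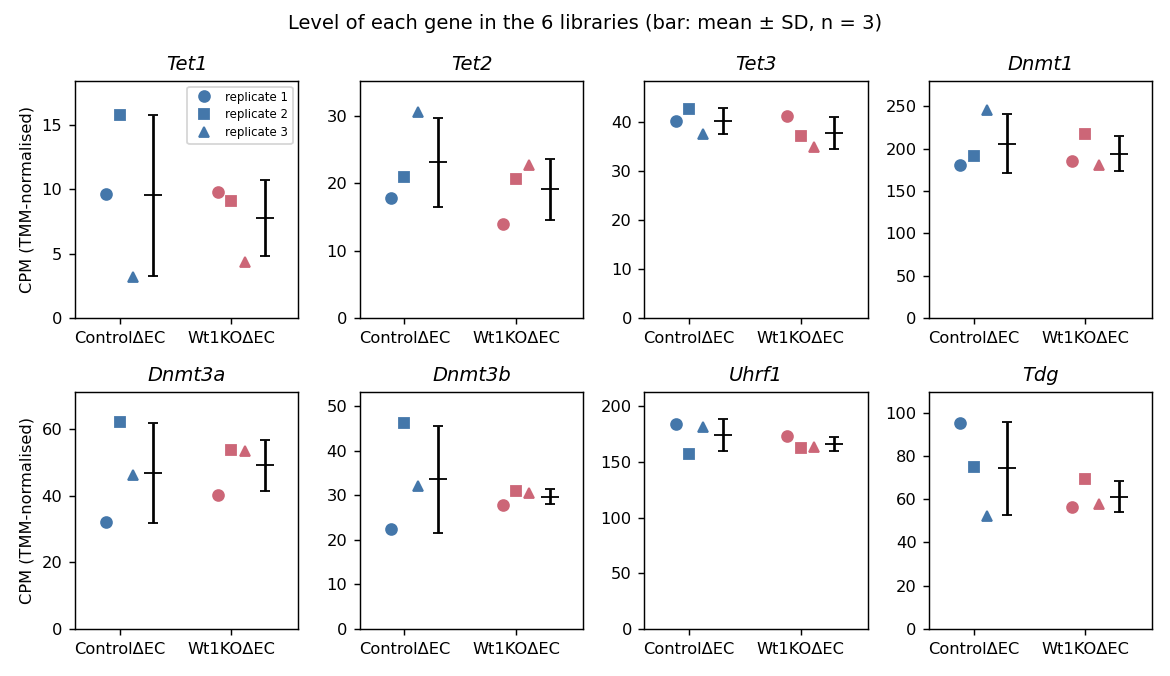
Level of each of the 8 genes in the 6 libraries, in CPM on a linear axis from 0 (TMM-normalised), with *ControlΔEC* in blue and *Wt1KOΔEC* in red. Circles, squares and triangles are replicates 1, 2 and 3, and bars are the mean ± SD of 3 libraries. The genotypes overlap in every panel, and the triangles are the lowest points of both genotypes for *Tet1*.

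The maintenance pair, *Dnmt1* and *Uhrf1*, had the most counts and the narrowest intervals of the writers. *Dnmt1* (chromosome 9, 20817945 to 20871184, minus strand) was at 181, 191 and 246 CPM in *ControlΔEC* replicates 1, 2 and 3, and at 185, 218 and 180 CPM in *Wt1KOΔEC*. The highest value was that of *ControlΔEC* replicate 3, and the other 5 libraries spanned 180 to 218 CPM. The means were 206 ± 35.0 and 194 ± 20.3 CPM (SD, n = 3 each), a log2 fold change of -0.09 with a 95% interval from -0.47 to 0.30 (edgeR's quasi-likelihood test, adjusted p = 0.910). *Uhrf1* (chromosome 17, 56610275 to 56630489, plus strand) was at 184, 157 and 181 CPM in *ControlΔEC* and at 174, 162 and 164 CPM in *Wt1KOΔEC*. All 3 values of *Wt1KOΔEC* lay inside the range of *ControlΔEC*. The means were 174 ± 14.6 and 166 ± 6.16 CPM, with a log2 fold change of -0.06 and an interval from -0.39 to 0.26 (adjusted p = 0.921). For *Uhrf1* the interval runs from 0.763 to 1.20 times the *ControlΔEC* level, the tightest bound among the 8 genes, and for *Dnmt1* from 0.720 to 1.23 times.

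The de novo enzymes varied more among the libraries of *ControlΔEC*. *Dnmt3a* (chromosome 12, 3856007 to 3964443, plus strand) was at 32.0, 62.0 and 46.1 CPM in *ControlΔEC* replicates 1, 2 and 3, and at 40.2, 53.7 and 53.2 CPM in *Wt1KOΔEC*. The 3 values of *Wt1KOΔEC* fell between the lowest and the highest of *ControlΔEC*. Its means were 46.7 ± 15.02 and 49.0 ± 7.66 CPM, and it was the 1 gene of the 8 with a log2 fold change above 0, at 0.07 with an interval from -0.51 to 0.65 (edgeR's quasi-likelihood test, adjusted p = 0.955). *Dnmt3b* (chromosome 2, 153490861 to 153529650, plus strand), which shares a chromosome with *Wt1*, was at 22.4, 46.3 and 32.1 CPM in *ControlΔEC* and at 27.8, 31.0 and 30.4 CPM in *Wt1KOΔEC*. Both de novo genes were lowest in *ControlΔEC* replicate 1 and highest in *ControlΔEC* replicate 2. The *Dnmt3b* means were 33.6 ± 12.0 and 29.7 ± 1.73 CPM, with a log2 fold change of -0.18 and an interval from -0.79 to 0.43 (adjusted p = 0.868). *Dnmt3c*, a rodent copy of *Dnmt3b* that acts in the male germ line, held 13 counts over the 6 libraries, and *Dnmt3l*, a catalytically inactive cofactor of the de novo enzymes, held 0.

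Of the 3 genes for the TET dioxygenases, *Tet3* was the steadiest and *Tet1* the most variable. *Tet3* (chromosome 6, 83339355 to 83436066, minus strand) was at 40.3, 42.8 and 37.6 CPM in *ControlΔEC* replicates 1, 2 and 3, and at 41.3, 37.2 and 34.9 CPM in *Wt1KOΔEC*. The means were 40.2 ± 2.57 and 37.8 ± 3.24 CPM, a log2 fold change of -0.09 with an interval from -0.49 to 0.31 (edgeR's quasi-likelihood test, adjusted p = 0.909). *Tet3* shares 1512 bp of exon with *Bola3* on the opposite strand (12.0 and 15.3 CPM), and the library kit does not mark strand, so reads of the shared stretch cannot be assigned with certainty.

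*Tet2*, which codes for a TET protein known to bind WT1, lies on chromosome 3 from 133169436 to 133250900 on the minus strand. It was at 17.8, 21.0 and 30.6 CPM in *ControlΔEC* and at 14.0, 20.7 and 22.7 CPM in *Wt1KOΔEC*. Replicate 1 was the lowest and replicate 3 the highest in each genotype, and 2 of the 3 *Wt1KOΔEC* values lay within the range of *ControlΔEC*. The means were 23.1 ± 6.65 and 19.11 ± 4.55 CPM, with a log2 fold change of -0.27, an SE of 0.29 and an interval from -0.93 to 0.39 (edgeR's quasi-likelihood test, adjusted p = 0.784). Levels from 0.523 to 1.31 times that of *ControlΔEC* are within this interval. The estimate was -0.43 without *ControlΔEC* replicate 1 and -0.019 without *ControlΔEC* replicate 3.

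*Tet1* (chromosome 10, 62640349 to 62744775, minus strand) had the fewest counts of the 8 genes. It was at 9.67, 15.7 and 3.22 CPM in *ControlΔEC* and at 9.82, 9.09 and 4.39 CPM in *Wt1KOΔEC*. Replicate 3 was the lowest of both genotypes, at 93 and 111 counts against 324 to 777 counts in the other 4 libraries. The means were 9.55 ± 6.26 and 7.77 ± 2.95 CPM, a log2 fold change of -0.30 with an SE of 0.57 and an interval from -1.58 to 0.98 (edgeR's quasi-likelihood test, adjusted p = 0.902). The interval runs from 0.335 to 1.97 times the *ControlΔEC* level, the widest of the 8.

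*Tdg*, whose product acts downstream of the TET enzymes, had the lowest adjusted p of the 8 genes. *Tdg* (chromosome 10, 82465610 to 82489654, plus strand) was at 95.3, 74.9 and 52.3 CPM in *ControlΔEC* replicates 1, 2 and 3, and at 56.5, 69.3 and 57.9 CPM in *Wt1KOΔEC*. The 3 *Wt1KOΔEC* values lay between the lowest and the middle value of *ControlΔEC*. The means were 74.2 ± 21.5 and 61.2 ± 7.03 CPM, with a log2 fold change of -0.28, an SE of 0.23 and an interval from -0.79 to 0.23 (edgeR's quasi-likelihood test, adjusted p = 0.692). The annotation holds 2 processed copies of *Tdg* that could take or give reads, *Tdg-ps* at 5.95 to 18.7 CPM and *Tdg-ps2* at 5.92 to 23.3 CPM over the 6 libraries. *Tdg* also shares 5389 bp of exon with *Glt8d2* on the opposite strand, which stood at 0.183 and 0.339 CPM. Summed with both copies, *Tdg* had a log2 fold change of -0.13. Single *ControlΔEC* libraries moved the estimate as well, to -0.056 without replicate 1 and to -0.47 without replicate 3.

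**Figure D2:**
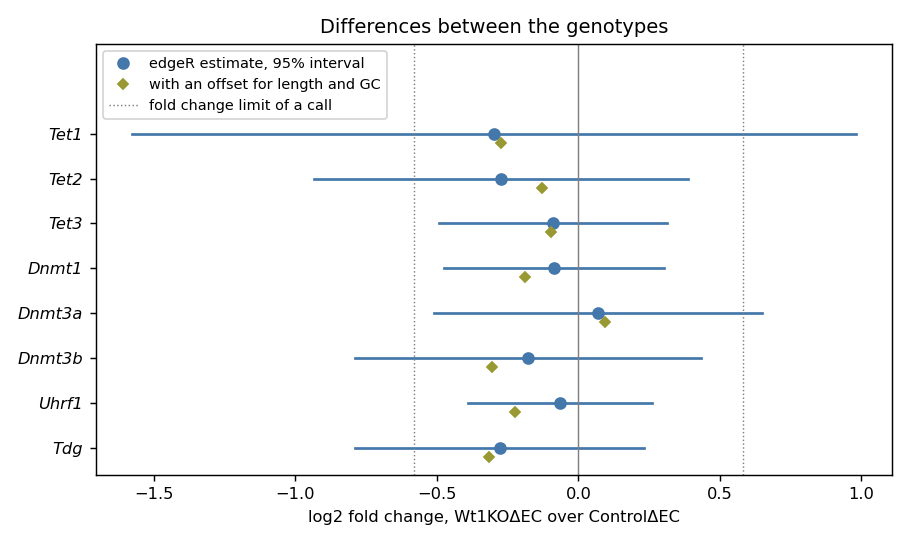
Log2 fold change of *Wt1KOΔEC* over *ControlΔEC* for the 8 genes (blue points, edgeR) with 95% intervals (lines), and the estimate after an offset for exonic length and GC content (green diamonds). Dotted lines mark the fold change limit of 0.58 in either direction, and every interval crosses 0, with the widest for *Tet1* (-1.58 to 0.98).

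Fold changes over all genes moved with gene length, which bears on this set because 4 of its members, the 3 TET genes and *Dnmt3a*, have over 12000 bp of annotated exon. The median log2 fold change was 0.09 over the 2128 genes of up to 2000 bp and 0.00 over the 6018 genes of 4000 to 8000 bp, and it was -0.21 over the 1756 genes above 12000 bp. *Tet1* and *Tet2* (-0.30 and -0.27) were below that last median, and *Tet3* and *Dnmt3a* (-0.09 and 0.07) above it. An offset for length and GC content brought the median of the longest genes to -0.11. It also lowered that of genes of 4000 to 8000 bp, which include *Dnmt3b* and *Uhrf1*, to -0.08, and the median of every length group was then below 0. With this offset the estimates were -0.27 for *Tet1*, -0.13 for *Tet2*, -0.10 for *Tet3* and 0.09 for *Dnmt3a*. For the shorter members they were -0.19 for *Dnmt1*, -0.31 for *Dnmt3b*, -0.22 for *Uhrf1* and -0.31 for *Tdg*, and none of the 8 was called. The share of counts from *Rn18s* and mitochondrially encoded genes also followed the genotype, at 19.8 to 20.7% in *ControlΔEC* and 25.6 to 28.2% in *Wt1KOΔEC*. Library identifiers run consecutively within each genotype, so a processing batch and the genotype cannot be told apart.

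Levels were then set beside each other per kb of annotated exon, since a long transcript gives more fragments. In *ControlΔEC* the order was *Uhrf1* (33.0 ± 2.77 CPM per kb), *Dnmt1* (24.3 ± 4.11), *Tdg* (7.87 ± 2.28), *Dnmt3b* (5.42 ± 1.94), *Dnmt3a* (2.74 ± 0.882), *Tet3* (2.41 ± 0.154), *Tet2* (1.303 ± 0.375) and *Tet1* (0.618 ± 0.405). On this scale the maintenance pair thus stood above the other enzymes, with 95.1% and 93.1% of the genes tested below *Uhrf1* and *Dnmt1*. That share was 54.6%, 42.5% and 30.6% for *Tet3*, *Tet2* and *Tet1*. The same order held in *Wt1KOΔEC*, from *Uhrf1* at 31.5 ± 1.17 and *Dnmt1* at 22.9 ± 2.39 to *Tet1* at 0.503 ± 0.191 CPM per kb. Between them stood *Tdg* at 6.49 ± 0.745, *Dnmt3b* at 4.79 ± 0.279, *Dnmt3a* at 2.88 ± 0.450, *Tet3* at 2.26 ± 0.194 and *Tet2* at 1.08 ± 0.256. Several neighbours were not separated by their spread. In *ControlΔEC* the ranges of *Tdg* and *Dnmt3b*, of *Dnmt3b* and *Dnmt3a*, of *Dnmt3a* and *Tet3*, and of *Tet2* and *Tet1* overlapped, and in *Wt1KOΔEC* only those of *Dnmt3a* and *Tet3* did. Within single libraries *Dnmt3a* was above *Tet3* in 4 of 6, and every other gene was above the next in 6 of 6. The lengths are those of all annotated exons, and the isoforms made in these cells are not resolved. With coding length in their place *Dnmt3a* moved above *Dnmt3b*, and with the length of the canonical transcript *Tet3* moved above *Dnmt3a*. The distance between *Dnmt1* and *Tdg* depends on the length too. On coding length it nearly closed in the *ControlΔEC* means, and *Tdg* was above *Dnmt1* in *ControlΔEC* replicates 1 and 2. The place of *Dnmt1* above *Tdg* thus rests on the length used. Coding sequence is 4973 of 8500 bp of exon in *Dnmt1* and 1812 of 9435 bp in *Tdg*.

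**Figure D3:**
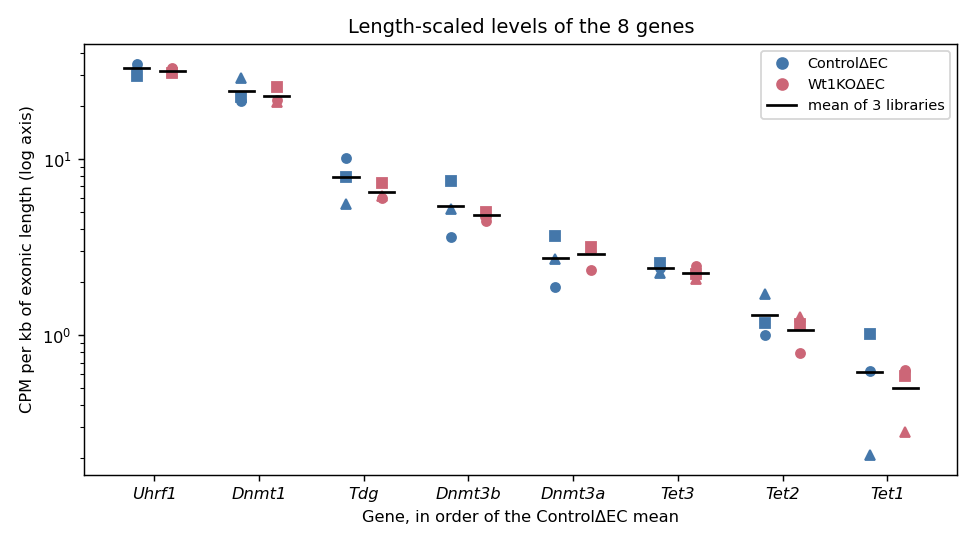
Level of each gene in CPM per kb of annotated exon (log axis), in the order of the *ControlΔEC* means, with *ControlΔEC* in blue and *Wt1KOΔEC* in red. Each point is a library and each black line the mean of 3, falling from 33.0 for *Uhrf1* to 0.618 for *Tet1* in *ControlΔEC*.

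Ratios within a library do not depend on how libraries are scaled to each other, and 9 of them were compared between the genotypes. With 3 against 3 libraries, a two-sided exact permutation test cannot give a p below 0.1, and after adjustment over the 9 ratios every p was 1. The balance of erasers over writers, as the log2 ratio of the TET total to the DNMT total per kb, was -2.90 ± 0.215 in *ControlΔEC* and -2.99 ± 0.105 in *Wt1KOΔEC*, a difference of -0.09 (exact permutation p = 0.5). The log2 ratio of *Uhrf1* to *Dnmt1* was 0.45 ± 0.234 and 0.47 ± 0.179 (exact permutation p = 0.9). That of *Tdg* to the TET total was 0.82 ± 0.463 and 0.75 ± 0.133 (exact permutation p = 0.9). *ControlΔEC* and *Wt1KOΔEC* overlapped for all 9 ratios.

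Among the TET genes, *Tet3* took the largest share in every library, at 59.7, 53.8 and 53.8% in *ControlΔEC* and 63.5, 55.9 and 57.3% in *Wt1KOΔEC*. *Tet2* took 24.9, 24.8 and 41.2% in *ControlΔEC* and 20.2, 29.3 and 35.0% in *Wt1KOΔEC*. *Tet1* took 15.48, 21.4 and 4.98% in *ControlΔEC* and 16.3, 14.8 and 7.77% in *Wt1KOΔEC*. The libraries numbered 3 thus had the least *Tet1* and the most *Tet2* of the family in each genotype. *Dnmt1* took 66.9 to 79.5% of the 3 DNMT genes in *ControlΔEC* and 72.5 to 76.1% in *Wt1KOΔEC*. *Dnmt3b* took 13.5 to 22.2% and 14.8 to 16.8%, and *Dnmt3a* 7.004 to 10.8% and 8.25 to 10.7%. These shares are per kb of all annotated exon, 17028 bp for *Dnmt3a* and 6199 bp for *Dnmt3b*, and depend on that choice. In CPM *Dnmt3a* was above *Dnmt3b* in every library. On coding length (2833 and 2730 bp) *Dnmt3a* also had the larger *ControlΔEC* mean, and the share of *Dnmt1* was smaller. *ControlΔEC* replicate 2 stood apart with the lowest share of *Dnmt1* and the highest of *Dnmt3b*, and the other 5 libraries had 72.5 to 79.5% of *Dnmt1*.

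**Figure D4:**
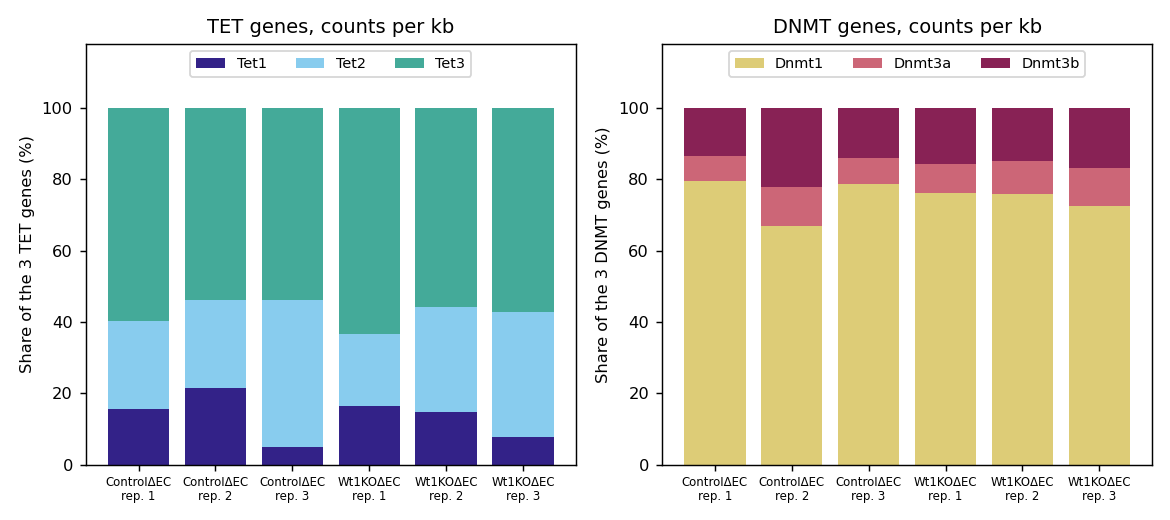
Share of each gene in its family per library, in percent of counts per kb of annotated exon, for the 3 TET genes (left) and for *Dnmt1*, *Dnmt3a* and *Dnmt3b* (right). The shares depend on the length used. *Tet3* makes up 53.8 to 63.5% and *Dnmt1* 66.9 to 79.5% over the 6 libraries, and the libraries numbered 3 have the smallest *Tet1* shares.

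Lists of genes that work with these enzymes were examined in the same fit, beside the shares of all genes that had an unadjusted p under 0.05 and were higher (5.96%) or lower (7.12%) in *Wt1KOΔEC*. No gene of these lists was called by edgeR. Of 10 cofactors and partners of the DNA methyltransferases, 8 were tested, with 2 higher and 1 lower at an unadjusted p under 0.05 and a median log2 fold change of 0.15. *Uhrf2*, the paralogue of *Uhrf1*, was at 68.0 ± 15.49 and 46.8 ± 5.26 CPM (log2 fold change -0.54, adjusted p = 0.314). *Cdca7*, which recruits the chromatin remodeller HELLS, was at 33.0 ± 1.84 and 45.5 ± 7.24 CPM (0.46, adjusted p = 0.359).

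Of 12 partners and antagonists of the TET enzymes 9 were tested, with 0 higher and 1 lower at the unadjusted threshold and a median log2 fold change of -0.03. The lower one was *Ogt*, which codes for the O-GlcNAc transferase that binds TET proteins. *Ogt* was at 121, 205 and 155 CPM in *ControlΔEC* and 60.2, 101 and 97.3 CPM in *Wt1KOΔEC*. All 3 *Wt1KOΔEC* values were below those of *ControlΔEC*. Of all genes, 19.3% had no overlap in either direction, and DESeq2 called 4.83%. Its log2 fold change was -0.90 with an SE of 0.25 and an adjusted p of 0.220 by edgeR's quasi-likelihood test, and DESeq2 called it, with an adjusted p of 0.0254. *Idh2* codes for the mitochondrial isocitrate dehydrogenase, 1 of the enzymes that make 2-oxoglutarate, which TET enzymes use. *Idh2* was at 453 ± 38.8 and 359 ± 31.9 CPM (log2 fold change -0.33, adjusted p = 0.382).

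Of 15 genes for the base excision repair of modified cytosine 14 were tested, with 3 higher and 3 lower at the unadjusted threshold and a median of 0.14. *Gadd45g*, a stress-induced gene whose family has been tied to active demethylation, was at 43.6 ± 7.46 and 71.9 ± 9.50 CPM (log2 fold change 0.72, adjusted p = 0.209 by edgeR and 0.0194 by DESeq2). *Smug1*, a uracil DNA glycosylase, was at 14.6 ± 1.87 and 6.60 ± 2.50 CPM (log2 fold change -1.15, adjusted p = 0.245 by edgeR and 0.0434 by DESeq2). These were the 2 genes of this list that DESeq2 called, 1 in each direction, 2 of 14 tested where DESeq2 called 4.83% of all genes. Neither overlapped between the genotypes, which held for 19.3% of all genes.

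All 12 readers of methylated or unmethylated CpG were tested, with 1 higher and 1 lower and a median of -0.12. *Kmt2a*, a histone methyltransferase with a CXXC domain, had a log2 fold change of -0.64 (adjusted p = 0.293) and *Kdm2b*, a demethylase with the same kind of domain, one of 0.50 (adjusted p = 0.346). Of 16 genes that supply S-adenosylmethionine, the methyl donor, and one-carbon units, 14 were tested, with 1 higher and 2 lower and a median of 0.19. *Shmt2*, the mitochondrial serine hydroxymethyltransferase, was at 75.1 ± 7.55 and 108 ± 5.12 CPM (log2 fold change 0.52, adjusted p = 0.226 by edgeR and 0.0221 by DESeq2). *Mat2a*, which makes S-adenosylmethionine, was at 324 ± 9.96 and 245 ± 16.8 CPM (-0.40, adjusted p = 0.277 by edgeR and 0.0250 by DESeq2). Neither *Shmt2* nor *Mat2a* overlapped between the genotypes, as for 19.3% of all genes. Both missed a DESeq2 call through the fold change limit, and DESeq2 called no gene of these 2 lists or of the methyltransferase partners.

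Germline genes that promoter methylation keeps silent in somatic cells were near the detection limit in both genotypes. Of 12 such genes 6 had no count in any library and 2 were tested, and the list summed to 0.0223 to 1.42 CPM in *ControlΔEC* and 0.140 to 1.13 CPM in *Wt1KOΔEC*. *Sycp1* and *Sycp3*, synaptonemal complex genes, held 39 and 86 counts over all libraries, and their log2 fold changes of 0.48 and -3.27 had SEs above 2 (adjusted p = 0.968 and 0.596 by edgeR).

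*Dnmt1* and *Uhrf1* are expressed in dividing cells, so replication and mitosis genes were set beside them. All 12 replication genes were tested and none reached an unadjusted p under 0.05, with 11 fold changes above 0 and 1 below and a median of 0.19. The list summed to 1160 to 1411 CPM in *ControlΔEC* and 1414 to 1532 CPM in *Wt1KOΔEC*. *Cdc6* and *Mcm6*, which license replication origins, stood at 0.43 and 0.22 on the log2 scale of fold change (adjusted p of 0.477 and 0.597 by edgeR). Of 8 genes of G2 and mitosis, 1 was higher and 1 lower at the unadjusted threshold, *Plk1* (0.64, adjusted p = 0.341) and *Mki67* (-0.39, adjusted p = 0.328), and the median was -0.02. The median of the replication list and the estimates of the maintenance pair thus lay on opposite sides of 0, where 52% of all genes were below 0. The difference between list and pair was not tested.

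**Figure D5:**
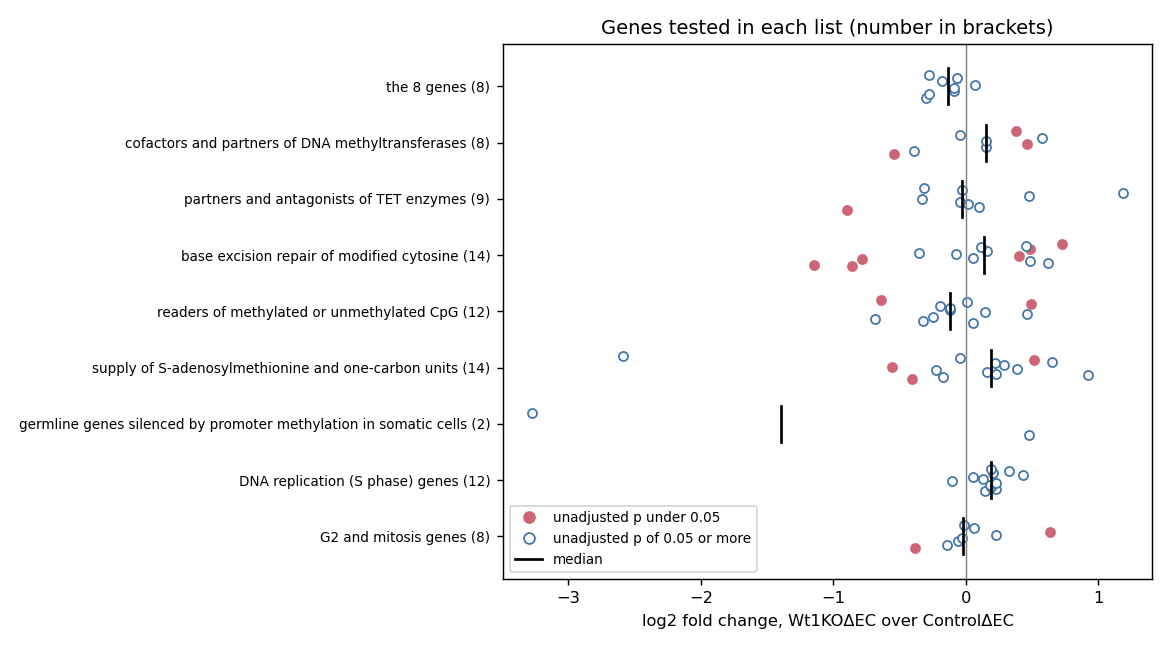
Log2 fold changes of *Wt1KOΔEC* over *ControlΔEC* for the 8 genes and for each list, with the number tested in brackets. Each circle is a gene, filled where its unadjusted p was under 0.05, and vertical lines are medians, from -1.40 for the 2 germline genes tested to 0.19 for the S-adenosylmethionine supply and replication lists.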

How the data were processed

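RNA was measured in 6 libraries of sorted coronary ECs, 3 per genotype. The authors made the libraries with a modified SMART-seq2 protocol and Nextera XT, which does not mark strand, mapped the reads with STAR 2.7.8a and quantified genes with RSEM 1.3.0, and the deposited values are RSEM's estimated counts for each gene, held as whole numbers and not normalized. The methods of the study give GRCm39 with GENCODE vM27, whereas the submitters' processing notes list GRCm38. They also name DESeq2 1.18. Amplified reads without molecular identifiers are not independent molecules, so depth limits cover counting error only.

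Libraries were grouped by the genotype and replicate number in their labels. The count table was tested with edgeR 4.0.16 in R 4.3.3 (TMM factors, quasi-likelihood test, Benjamini-Hochberg adjustment over 16296 genes), and limma 3.58.1 (voom) and DESeq2 1.42.0 were alternatives, the latter being the tool of the study. CPM are TMM-normalised. Positions, exonic lengths and GC contents were those of GENCODE vM39 (GRCm39), available for 16238 tested genes, and offsets used natural splines with 5 degrees of freedom. The steps were tested on simulated data. The first version of that test failed, and the fold sizes and pass criteria were altered after seeing this. Few of the genes set to differ 2-fold were recovered, so modest differences between the genotypes can be missed. All 8 genes are named, and of each list the called genes or, with none called, the 2 with the smallest p. The members and lists were chosen with earlier results of these data known. Other normalizations, filters, tests, lengths and sets of libraries, a replicate block and members summed with their copies were tried as alternatives.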

Additional observations from a re-analysis of the deposited data

How the results depend on the processing

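None of the 8 genes was called under any of 20 alternatives, with a lowest adjusted p of 0.272 and a lowest p of 0.0322, both for *Tdg* without *ControlΔEC* replicate 3, the 1 alternative in which a member had an unadjusted p under 0.05 (0 to 1 of 8 over the libraries left out in turn). Of 160 member fold changes 152 kept their direction, and the cause of the 8 that did not was not tested. The alternative with no fold change limit reused the main fit, so its estimates could not differ. With library size only *Dnmt3a* was at -0.091, and without both libraries numbered 3 *Dnmt3a* was at -0.0034 and *Dnmt1* at 0.11. The others came from leaving out 1 library. *Dnmt3a* was at -0.14 without *ControlΔEC* replicate 1 and -0.00036 without *Wt1KOΔEC* replicate 2 (highest 0.33), *Tet1* at 0.27 without *ControlΔEC* replicate 2 (lowest -0.71), *Dnmt3b* at 0.13 without *ControlΔEC* replicate 2 (lowest -0.40) and *Dnmt1* at 0.063 without *ControlΔEC* replicate 3 (lowest -0.18). *Tet2* ran from -0.43 to -0.019 and *Tdg* from -0.47 to -0.056 over the libraries left out. *Sycp1*, no member, ran from -0.10 to 0.98 over them and up to 2.41 with the block and the length and GC offset. *Ogt* was also called with no filter (adjusted p = 0.0333).

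Over all genes, 12 calls became 296 with no filter, 767 with DESeq2, 5 with an offset for length and GC and 2 to 37 over the libraries left out in turn, with 37 without *ControlΔEC* replicate 3 and 2 without *Wt1KOΔEC* replicate 3. Without both libraries numbered 3, which left 2 against 2, 1 gene was called, and *Wt1* at -2.98 was not. The fold change of *Wt1* was -3.05 to -2.76 over all alternatives. With coding length or the canonical transcript's length, 6 of 8 genes kept their rank. The canonical length and leaving out both libraries numbered 3 were chosen after seeing the data. None of 90 ratio differences moved by more than the spread between replicates, taken as the pooled SD. Many could not. Leaving out 1 of 3 libraries always shifts a difference by less than that SD, so those settings test nothing here. Other lengths or summed copies leave the difference in the log2 ratio of *Uhrf1* to *Dnmt1* unchanged.

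The paper describes a cross that yields both genotypes in the same litter, but the labels do not say that a replicate number marks a litter. Same-numbered libraries of the genotypes deviated together only weakly (r = 0.0316 to 0.0514), although each correlated best with its own number. The numbers were not taken as pairs. *Tet1* was at -0.11 with the replicate block and at -0.021 with the block and the length and GC offset. With the replicate block 5 genes were called over all genes, and 7 with the block and the length and GC offset, with 0 members called in both. Counting error is largest for *Tet1*, at 93 counts in its lowest library, and does not cover its spread between replicates.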
